A study of Mus musculus with 6 samples.

Results

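The transforming growth factor beta (TGF-beta) genes examined here are the ligands Tgfb1, Tgfb2 and Tgfb3, the receptors Tgfbr1, Tgfbr2 and Tgfbr3, and the latent TGF-beta binding proteins Ltbp1, Ltbp2, Ltbp3 and Ltbp4. These 10 genes were found by symbol among the 53801 Ensembl genes of the count tables, each with a single identifier, and all 10 had enough counts to be tested. RNA was sequenced from MC3T3-E1, a mouse cell line labelled as pre-osteoblast, in 3 Control libraries carrying a lentivirus with a scrambled, non-silencing hairpin and 3 Hdac4-knockdown libraries carrying a lentivirus with a hairpin against Hdac4. Both groups carry the same vector with ZsGreen1 and a puromycin resistance gene, and both were selected with 5 μg/mL puromycin for 7 days. The study's account of the sequencing gives the hairpin as Hdac4-shRNA3, which the sample labels call Hdac4-shRNA. The knockdown group rests on a single hairpin. The study calls the libraries of each group 3 biological replicates and the labels describe 3 separately prepared RNA samples in each group, while neither states separate infections, so the p-values measure the spread between these samples.

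The target of the hairpin and the scrambled sequence, written 5′ to 3′ as the labels give them, show what differed between the groups.
Hdac4-shRNA3: gcatgaggcacagttgcatga
Scrambled: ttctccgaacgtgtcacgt
All 21 bases of the Hdac4-shRNA3 target were found in Hdac4 transcripts of GENCODE M21. The longest stretch of it shared with a transcript of any of the 10 TGF-beta genes was 11 bases, in Tgfbr1, and the shortest of these longest stretches was 7 bases. Stretches of this length were not searched in other transcripts, so these values have no baseline. Any action of the hairpin on the TGF-beta genes themselves was not tested.

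TGF-beta ligands are made as proproteins, which the protease furin cleaves. The mature dimer stays bound to its own propeptide, and this latent complex is joined by disulfide bonds to a latent TGF-beta binding protein, which places it in fibrillin microfibrils of the extracellular matrix. Once released, for instance by integrins that pull on the propeptide, the ligand binds the kinase receptor Tgfbr2, which recruits and phosphorylates Tgfbr1, and Tgfbr1 in turn phosphorylates Smad2 and Smad3. Tgfbr3, also called betaglycan, is a co-receptor without kinase activity that presents the ligands, above all TGF-beta2, to Tgfbr2. In bone, latent TGF-beta stored in the matrix is a known regulator of osteoblast precursors.

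Between 29096544 and 31651826 reads were counted on genes in each library, and the groups overlapped in depth. The Control libraries held 1243, 1204 and 1136 reads of Hdac4 itself and the Hdac4-knockdown libraries 950, 927 and 887, which left 73.6% of its normalized level (adjusted p = 8.98e-07, edgeR). Of the Hdac4 exon bases, 3536 are shared with Gm26720 on the opposite strand. Of 10 osteoblast markers, Alpl, Ibsp and Bglap had 3 counts or fewer in every Control library, and the summed level of the list was 4769 to 4781 CPM (counts divided by the TMM-normalized library size and scaled up by a constant) in Control and 21437 to 22275 CPM in Hdac4-knockdown libraries. Without Col1a1 and Col1a2, which are also TGF-beta targets, the sum of the other 8 markers was 3196 to 3259 CPM in Control and 2104 to 2178 CPM in Hdac4-knockdown libraries, most of it from Spp1, which was called as lower. Alpl had 3 counts or fewer in every Hdac4-knockdown library too. By gene, Alpl, Ibsp and Bglap had too few counts to be tested. Of the 10 listed markers, 6 were called as higher and 1 as lower, beside 38% and 37.1% of all genes tested. Besides Col1a1 and Col1a2, the higher ones were Dlx5 (43.5 times the Control mean), Sp7 (18.7), Pth1r (6.58) and Runx2 (1.14). Dlx5, Sp7 and Pth1r had 8 counts or fewer in every Control library, and Runx2 overlapped between the groups. All 5 myoblast markers (Myod1, Myog, Myf5, Des and Pax7) had more than 3 counts in every Control library, and all 5 were lower in Hdac4-knockdown libraries, with a summed level of 828 to 868 CPM against 111 to 127 CPM. Of 5 endothelial markers, 2 were higher in Hdac4-knockdown libraries, beside the same 38% of all genes tested, and Cdh5, Kdr and Tek were not tested. The summed level of the 5 was 0.36 to 0.668 CPM in Control and 5.61 to 6.42 CPM in Hdac4-knockdown libraries. Cdh5 and Kdr had 3 counts or fewer in every Control library. Adgre1, a macrophage marker, Tnmd, a tendon marker, and the cartilage markers Acan and Col9a1 were at 0 in every library. Of the other cartilage markers, Col2a1 rose from 0.827 to 51.1 CPM and Comp from 0.0343 to 0.654 CPM, while Sox9 was not called. Mkx and Pdgfra, also of the tendon or fibroblast list, were higher, at 10.9 and 5.23 times the Control mean. Scx of that list was lower, at 38.8% of the Control mean. Csf1r of the blood list rose from 0.147 to 0.686 CPM, and Cd68 was not called. Reads outside genes made up 3.17% to 3.41% of all reads in the tables in Control and 4.64% to 5.07% in Hdac4-knockdown libraries. The part of these differences in the results for the TGF-beta genes was not tested. As RNA was taken from whole cultures, fewer cells of a type and less RNA per cell cannot be told apart.

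Among the 10 genes, 5 were higher and 4 were lower in Hdac4-knockdown libraries, and Tgfbr2 was not called. The 3 ligands were all higher, the receptors were split, and Ltbp3 was higher while the other latent binders were lower. A gene was called where its adjusted p was below 0.05 and its log2 fold change was beyond 0.05 in size, in edgeR's quasi-likelihood test with Benjamini-Hochberg adjustment over the 14531 genes tested. By this rule, 75.1% of all genes tested were called, 38% as higher and 37.1% as lower, so 9 calls among 10 genes are read against a background in which most genes were called. The groups did not overlap for 9 of the 10 genes, against 76.8% of all genes tested. The median log2 fold change of the 10 was 0.09, and that of all genes tested was 0.01. With a stricter log2 fold change threshold of 0.5, 4 of the 10 genes were higher (Tgfb2, Tgfb3, Tgfbr3 and Ltbp3) and 2 lower (Tgfbr1 and Ltbp2), beside 24.6% and 19.8% of all genes tested, or 44.4% in either direction. With a threshold of 1, Ltbp3 alone was called, beside 16.5% of all genes as higher, 10.6% as lower and 27.1% in either direction.

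**Figure D1:**
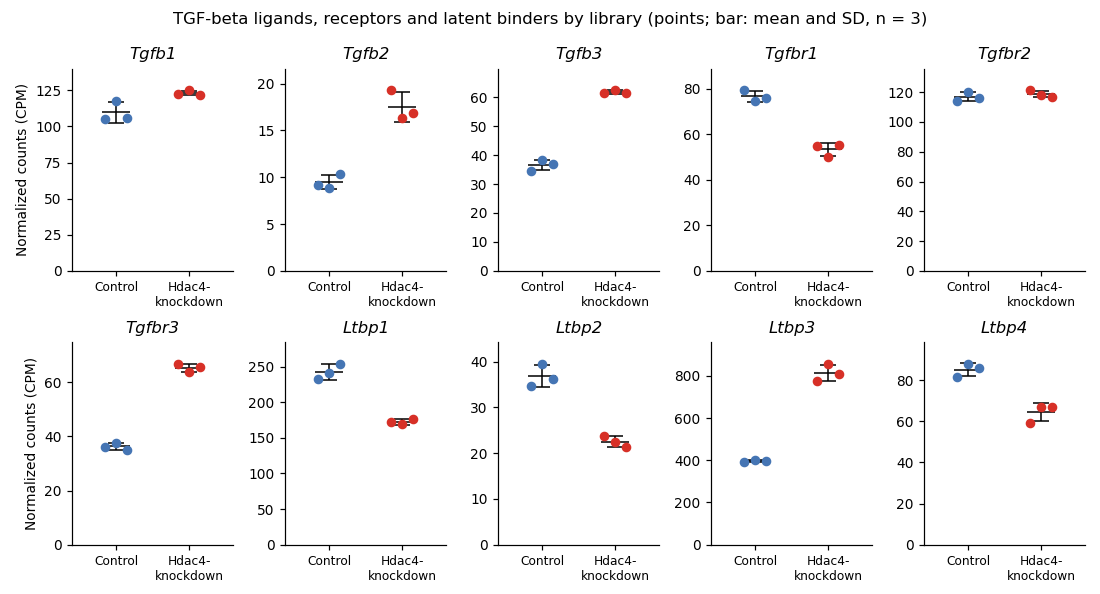
Normalized counts (CPM, vertical axes from 0, scaled separately for each gene) of the 10 TGF-beta genes in the 3 Control and the 3 Hdac4-knockdown libraries. Points are libraries, and bars give the mean and SD. The groups lie apart for every gene but Tgfbr2, whose libraries all lie between 114 and 121 CPM.

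Tgfb1 (ENSMUSG00000002603, plus strand of chromosome 7, 25687002 to 25705077 in GRCm38) encodes TGF-beta1, the most widely expressed ligand. It was at 105, 118 and 106 CPM in the Control libraries and at 123, 125 and 122 CPM in the Hdac4-knockdown libraries. The groups did not overlap, but Control replicate 2 lay close to the lowest Hdac4-knockdown library. The mean rose from 110 ± 7.12 to 123 ± 1.64 CPM (SD, n = 3), or 0.17 on the log2 scale (SE 0.0481, adjusted p = 0.00411, edgeR). The change of Tgfb1 was larger in size than that of only 20.8% of the genes tested.

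Tgfb2 (ENSMUSG00000039239, minus strand of chromosome 1, 186622792 to 186705989) encodes TGF-beta2, the ligand that depends most on betaglycan. Control libraries held 9.20, 8.89 and 10.4 CPM, from 281, 266 and 296 counts, and Hdac4-knockdown libraries held 19.3, 16.3 and 16.8 CPM, from 597, 525 and 506 counts. Every Hdac4-knockdown library lay well above every Control library. Tgfb2 had 1.84 times the Control mean, and its log2 fold change was 0.88 (SE 0.0941, adjusted p = 6.55e-08, edgeR), the largest of the 3 ligands. Its exons share 124 bases with the antisense gene Gm29491.

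Tgfb3 (ENSMUSG00000021253, minus strand of chromosome 12, 86056745 to 86079041) encodes TGF-beta3, known for its part in palate fusion. It was measured at 34.6, 38.3 and 36.9 CPM in Control and at 61.6, 62.5 and 61.4 CPM in Hdac4-knockdown libraries. The Hdac4-knockdown libraries were nearly level with each other and far above the Control libraries, and the log2 fold change was 0.76 (SE 0.0538, adjusted p = 1.35e-10, edgeR). Of the 3383 exon bases of Tgfb3, 420 are shared with other annotated genes on the opposite strand. The library kit does not mark strand, so its counts are uncertain to that extent.

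Levels can be compared between genes only per length, and were therefore also expressed as CPM per kb of exon. On this scale the 3 ligands together rose from 34.2 ± 1.83 to 45.7 ± 0.428 CPM per kb (SD, n = 3), 1.34 times the Control level. Tgfb1 made up 63.8%, 64.5% and 62.4% of the ligand transcripts in the Control libraries and 53%, 53.8% and 53.5% in the Hdac4-knockdown libraries. Tgfb3 went from 31.6% ± 0.605 to 40% ± 0.23 (SD, n = 3) of the ligand transcripts, and Tgfb2 from 4.8% ± 0.543 to 6.60% ± 0.603. Tgfb1 was still the most abundant ligand in every library. Such shares lie within a library and do not depend on how the libraries are scaled to each other. Each of the 3 ligand shares separated the groups, with p = 0.1 in a two-sided exact permutation test, the smallest p that 3 libraries against 3 allow, or 0.111 after Benjamini-Hochberg adjustment over the 10 shares compared. The ratio of Tgfb1 to Tgfb3 was 2.04, 2.07 and 1.93 in Control libraries and 1.34, 1.34 and 1.33 in Hdac4-knockdown libraries. With coding lengths the means of this ratio were 3.17 and 2.11. The ratio of Tgfb3 to Tgfb2 overlapped between the groups (6.63 ± 0.668 and 6.09 ± 0.568, SD, n = 3), and its exact permutation p was 0.5.

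**Figure D2:**
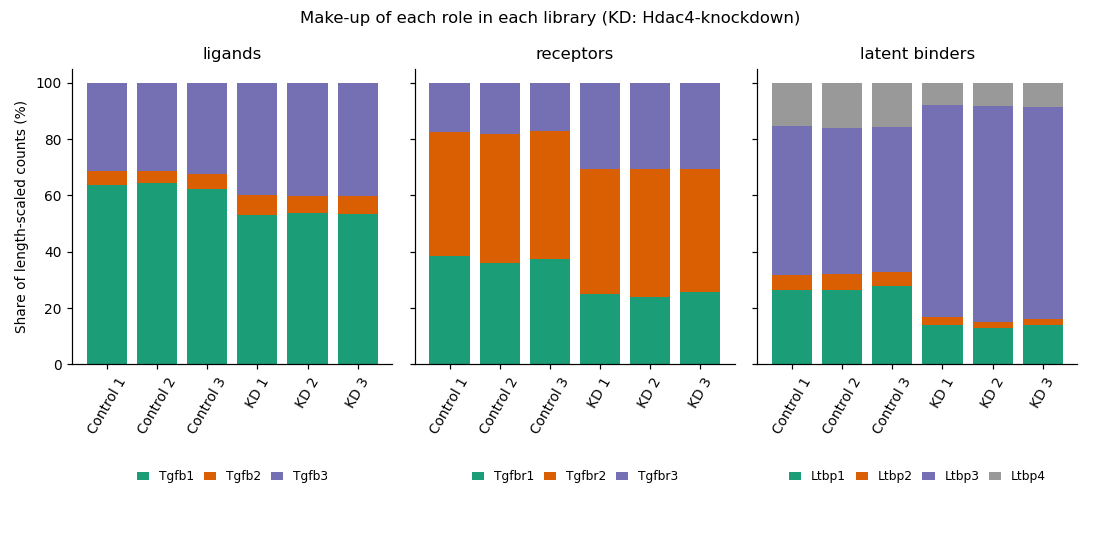
Share of each gene (%, vertical axis from 0) in the length-scaled counts of the ligands, the receptors and the latent binders, stacked for each of the 6 libraries (KD, Hdac4-knockdown). Tgfb1 stays the largest ligand share in every library, the Tgfbr1 share shrinks while the Tgfbr3 share grows, and the Ltbp3 share goes from a mean of 52% to 75.7%.

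The receptors showed a call in each direction and a gene without a call. Tgfbr1 (ENSMUSG00000007613, plus strand of chromosome 4, 47353222 to 47414931), the type I receptor kinase, was at 79.3, 74.6 and 76.1 CPM in Control and at 54.6, 49.9 and 55.4 CPM in Hdac4-knockdown libraries. All Hdac4-knockdown libraries lay below all Control libraries, at 69.5% of the Control mean. Its log2 fold change was -0.52 (SE 0.0524, adjusted p = 2.47e-08, edgeR).

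Tgfbr2 (ENSMUSG00000032440, minus strand of chromosome 9, 116084293 to 116175360), the ligand-binding type II receptor kinase, was at 114, 120 and 116 CPM in Control and at 121, 118 and 117 CPM in Hdac4-knockdown libraries. The groups overlapped, and the log2 fold change of 0.02 (SE 0.0427) did not pass the test (adjusted p = 0.665, edgeR). Only 2.66% of the genes tested had a smaller change in size. The sign of this value turned negative in 2 of 14 alternatives, and upper quartile normalization gave 0.11 with an adjusted p of 0.0242 in edgeR.

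Tgfbr3 (ENSMUSG00000029287, minus strand of chromosome 5, 107106570 to 107289629), the co-receptor betaglycan, rose from 36.1, 37.6 and 35.1 CPM in Control to 66.6, 63.8 and 65.4 CPM in Hdac4-knockdown libraries. No library of either group came near the other group. The log2 fold change was 0.85 (SE 0.0523, adjusted p = 1.42e-11, edgeR), or 1.80 times the Control mean. Its exons share 297 bases with Gm43422, annotated on the same strand.

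Summed per kb of exon, the 3 receptors were at 31.6 ± 0.315 CPM per kb in Control and 32.6 ± 0.798 CPM per kb in Hdac4-knockdown libraries (SD, n = 3), with overlap between the groups (exact permutation test, two-sided, p = 0.2, or 0.236 after adjustment over the 13 sums and ratios compared). Within this sum, Tgfbr1 went from 38.4%, 35.8% and 37.3% of receptor transcripts to 25%, 24% and 25.9%. Tgfbr3 went the other way, from 17.4%, 18% and 17.2% to 30.5%, 30.7% and 30.5%. The Tgfbr2 share overlapped between the groups, at 45.3% ± 0.983 and 44.4% ± 0.827 (SD, n = 3). The ratio of the type II to the type I kinase receptor, Tgfbr2 to Tgfbr1, was 1.15, 1.29 and 1.22 in Control and 1.77, 1.88 and 1.69 in Hdac4-knockdown libraries. Betaglycan transcripts were fewer than Tgfbr1 transcripts in Control libraries, with a ratio of 0.473 ± 0.0267, and exceeded them in Hdac4-knockdown libraries, with a ratio of 1.22 ± 0.0499 (SD, n = 3). This crossing depends on the gene length, since with coding lengths the ratio was 0.28 ± 0.0158 in Control and 0.726 ± 0.0296 in Hdac4-knockdown libraries, below 1 in every library. The fold between the groups, 2.59, does not depend on the length. With coding lengths the sum of the receptors also changed direction, to 0.976 times the Control level, still with overlap. Sums and ratios with coding lengths were added after the data were seen. The ratios of Tgfbr2 to Tgfbr1 and of Tgfbr3 to Tgfbr1 both separated the groups completely, with an exact permutation p of 0.1, or 0.13 after adjustment over the 13 sums and ratios.

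The latent binders showed the largest difference between members. Ltbp3 (ENSMUSG00000024940, plus strand of chromosome 19, 5740904 to 5758532), which binds latent TGF-beta covalently and whose loss is known to affect the skeleton and teeth, was at 391, 400.0 and 398 CPM in Control and at 776, 856 and 809 CPM in Hdac4-knockdown libraries. The Hdac4-knockdown libraries spread more widely than the Control libraries, yet all lay far above them. Its level was 2.05 times the Control mean, and its log2 fold change was 1.04 (SE 0.0406, adjusted p = 9.47e-15, edgeR), the largest in size and the smallest p of the 10 genes. Even so, 73.7% of the genes tested had a smaller change in size, so its size is not unusual in this comparison.

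Ltbp1 (ENSMUSG00000001870, plus strand of chromosome 17, 75005568 to 75392512), the founding member of the family and a covalent partner of latent TGF-beta, was at 232, 241 and 253 CPM in Control and at 172, 169 and 176 CPM in Hdac4-knockdown libraries. Its log2 fold change was -0.49 (SE 0.0427, adjusted p = 3.04e-09, edgeR). Ltbp2 (ENSMUSG00000002020, minus strand of chromosome 12, 84783212 to 84876532), the family member that does not bind latent TGF-beta, was at 34.7, 39.5 and 36.3 CPM in Control and at 23.9, 22.4 and 21.3 CPM in Hdac4-knockdown libraries. At -0.71 on the log2 scale (SE 0.0678, adjusted p = 1.32e-08, edgeR), it fell most among the 10 genes. Of its 8184 exon bases, 764 are shared with the antisense gene D030025P21Rik.

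Ltbp4 (ENSMUSG00000040488, minus strand of chromosome 7, 27305136 to 27337692), which is known for its part in elastic fibre assembly and binds TGF-beta1 less efficiently, was at 81.4, 87.8 and 86.1 CPM in Control and at 59.3, 66.8 and 66.9 CPM in Hdac4-knockdown libraries. Its log2 fold change was -0.40 (SE 0.0538, adjusted p = 1.4e-06, edgeR). For each of the 4 latent binders, the libraries of the groups did not overlap.

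The opposite changes within the family shifted its make-up. Ltbp3 made up 52.8%, 51.9% and 51.5% of latent binder transcripts in Control libraries and 75.2%, 76.6% and 75.2% in Hdac4-knockdown libraries. Ltbp1 went from 26.9% ± 0.701 to 13.6% ± 0.705, Ltbp4 from 15.7% ± 0.279 to 8.39% ± 0.33 and Ltbp2 from 5.35% ± 0.276 to 2.33% ± 0.205 (SD, n = 3). The ratio of Ltbp3 to Ltbp1 was 1.99, 1.96 and 1.85 in Control and 5.32, 5.98 and 5.41 in Hdac4-knockdown libraries, both genes being measured per kb of exon. The sum of the 4 genes rose from 84.1 ± 2.04 to 119 ± 4.73 CPM per kb (SD, n = 3), 1.41 times the Control level. Without Ltbp3, the sum of the other latent binders was 0.715 times the Control level. The sum over Ltbp1, Ltbp3 and Ltbp4, the genes whose products bind latent TGF-beta, was 1.46 times the Control level.

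Ligands and latent binders both summed to more transcripts in Hdac4-knockdown libraries, each with an exact permutation p of 0.1. Per kb of exon, the ratio of latent binders to ligands was 2.5, 2.35 and 2.53 in Control libraries and 2.48, 2.67 and 2.62 in Hdac4-knockdown libraries. These values overlapped (exact permutation test, two-sided, p = 0.3, or 0.325 after adjustment over the 13 sums and ratios). With coding lengths the ratio was 1.38, 1.29 and 1.40 in Control and 1.51, 1.64 and 1.601 in Hdac4-knockdown libraries, and the groups no longer overlapped (exact permutation test, two-sided, p = 0.1, or 0.118 after adjustment), so neither the level of this ratio nor its overlap holds for both lengths.

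**Figure D3:**
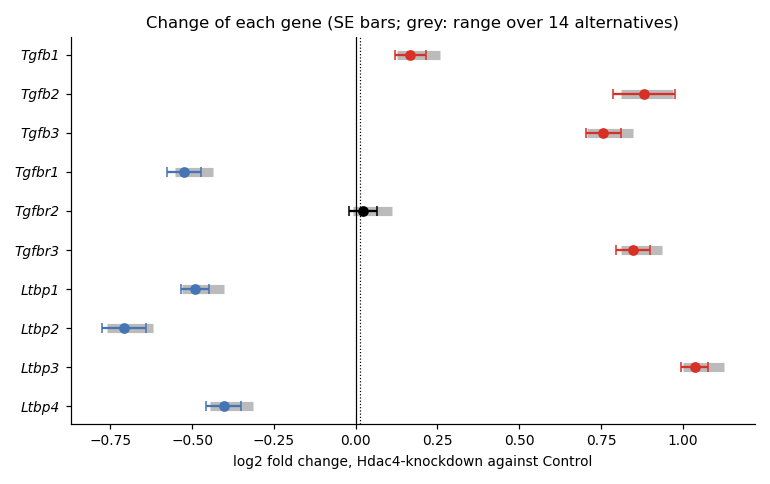
Log2 fold change of each gene between Hdac4-knockdown and Control libraries (horizontal axis), with SE bars. Red marks genes called as higher, blue genes called as lower and black the gene not called, grey bands give the range over 14 alternative analyses, and the dotted line is the median of all genes tested, 0.01. Ltbp3 lies farthest to the right at 1.04 and Ltbp2 farthest to the left at -0.71, and the band of Tgfbr2 alone crosses 0.

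In the order of levels per kb of exon, Ltbp3 was the most abundant of the 10 genes in both groups, at 43.7 CPM per kb in Control and 89.7 CPM per kb in Hdac4-knockdown libraries. In Control libraries it was followed by Ltbp1 (22.7 CPM per kb) and Tgfb1 (21.8 CPM per kb), whose ranges over the 3 libraries overlapped. Next came Tgfbr2, Ltbp4, Tgfbr1 and Tgfb3, from 14.3 down to 10.8 CPM per kb, then Tgfbr3, Ltbp2 and Tgfb2, from 5.54 down to 1.64 CPM per kb, and none of these neighbours overlapped. In Hdac4-knockdown libraries the order after Ltbp3 was Tgfb1 (24.4 CPM per kb), Tgfb3 (18.3), Ltbp1 (16.1), Tgfbr2 (14.5), Tgfbr3 (9.98), Ltbp4 (9.95), Tgfbr1 (8.16), Tgfb2 (3.02) and Ltbp2 (2.75 CPM per kb). There the ranges of Tgfbr3 and Ltbp4 overlapped, as did those of Tgfb2 and Ltbp2. Tgfb3 moved from place 7 to place 3, and Ltbp2 replaced Tgfb2 at place 10. The order depends on the length used, and with the coding length in place of the exon length only 2 of the 10 genes kept their place in the Control group, Tgfb3 went from place 6 to place 4, and Ltbp2 was at place 10 in both groups.

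**Figure D4:**
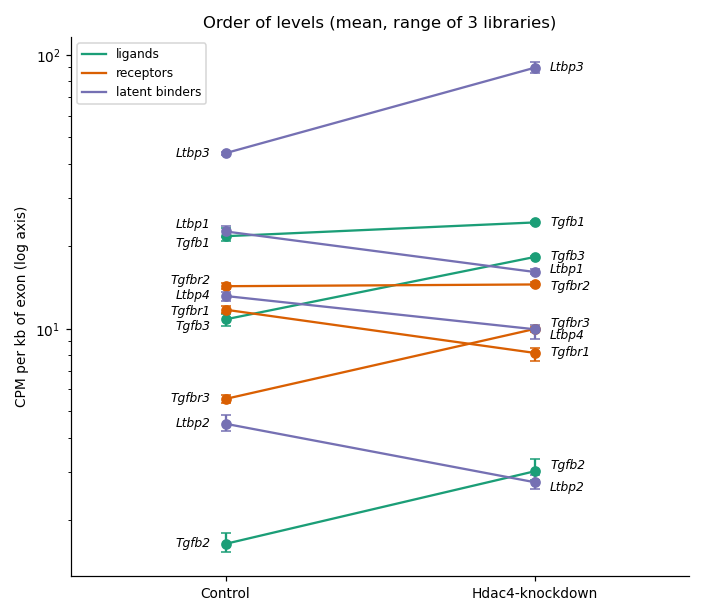
Level of each gene per kb of exon (CPM per kb, log axis) in Control and Hdac4-knockdown libraries. Points are means, bars the range of 3 libraries, and colours mark ligands, receptors and latent binders. Ltbp3 is highest in both groups, the lines of Tgfb3 and Tgfbr3 cross those of Tgfbr1 and other genes on their way up, and the line of Tgfbr2 is flat.

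Promoter sequence was taken from RefSeq (GRCm38.p6) for the 8 of the 10 genes that had an entry, as the 250 bases before each transcript start, in 12 windows. The windows below show the ligands with the smallest and the largest log2 fold change, Tgfb1 and Tgfb2, and the most abundant latent binders in Control libraries, Ltbp3 and Ltbp1, which changed in opposite directions. Capitals mark motif matches, searched on both strands. The GC box was searched as GGGCGG. The Smad box was searched as CAGAC. The TATA motif was searched as TATAAA. The cyclic AMP response element was searched as TGACGTCA. No searched motif overlapped another in these windows.
Tgfb1, chr7:25686752-25687001, plus strand: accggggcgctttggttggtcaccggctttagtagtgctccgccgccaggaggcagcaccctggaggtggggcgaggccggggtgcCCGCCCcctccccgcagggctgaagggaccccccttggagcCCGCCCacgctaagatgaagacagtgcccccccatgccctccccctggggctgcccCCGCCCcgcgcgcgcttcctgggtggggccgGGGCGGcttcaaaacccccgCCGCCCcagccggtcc
Tgfb2, chr1:186705990-186706239, minus strand: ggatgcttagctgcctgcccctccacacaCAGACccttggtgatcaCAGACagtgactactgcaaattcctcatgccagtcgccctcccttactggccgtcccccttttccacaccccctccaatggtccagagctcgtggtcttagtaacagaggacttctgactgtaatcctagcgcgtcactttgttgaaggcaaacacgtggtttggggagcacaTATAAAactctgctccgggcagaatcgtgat
Ltbp3, chr19:5740650-5740899, plus strand: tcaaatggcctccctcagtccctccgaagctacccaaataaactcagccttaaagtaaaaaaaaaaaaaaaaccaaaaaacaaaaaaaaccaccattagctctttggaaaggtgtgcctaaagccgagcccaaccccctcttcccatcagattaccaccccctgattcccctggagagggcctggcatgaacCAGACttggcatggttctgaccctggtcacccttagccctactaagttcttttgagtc
Ltbp1, chr17:75005279-75005528, plus strand: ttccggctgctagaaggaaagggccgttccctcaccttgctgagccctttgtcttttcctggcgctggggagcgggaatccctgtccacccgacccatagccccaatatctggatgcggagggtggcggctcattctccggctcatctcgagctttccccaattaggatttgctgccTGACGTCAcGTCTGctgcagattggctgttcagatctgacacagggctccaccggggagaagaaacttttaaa

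The Tgfb1 window had 75.2% G and C, held 5 GC boxes and had no match to the other motifs. The Tgfb2 window had 53.6% G and C, and held a TATA motif, 2 Smad boxes and no GC box. The Ltbp3 window had 47.2% G and C and 1 Smad box. The Ltbp1 window shown had 56.8% G and C, a cyclic AMP response element and 1 Smad box. Another Ltbp1 window, at 75178531 to 75178780, had 50.8% G and C, 2 Smad boxes and no cyclic AMP response element. Over 32851 mouse promoter windows of the same length, the median share of G and C was 52.4%, and 32.7% of windows held a GC box, 42.2% a Smad box, 12.4% a TATA motif and 1.55% a cyclic AMP response element. None of the 12 windows, which cover 8 of the 10 genes, matched the AP-1 motif (TGANTCA), found in 6.75% of all windows. None matched the MEF2 motif, found in 2.92%. Tgfb3 and Tgfbr3 had no window to search. These matches describe the letters in the windows and were not tested as sites.

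A list of 83 other genes of the pathway was examined by role, of which 76 had enough counts to be tested. Of these, 49 were higher, 19 were lower and 8 were not called, and the median log2 fold change was 0.36, beside 0.01 for all genes tested. Of all genes tested, 75.1% were called, 38% as higher and 37.1% as lower. The counts here and in each role below are given as a description beside these shares. Values named here are the largest and smallest changes in each list among called genes with non-overlapping groups and a mean of at least 100 counts. The integrin chains other than Itgb5, the genes Smad2, Smad3 and Smad4, and the genes Furin, Ccn2, Skil, Pmepa1 and Fbn1 were added after their values were seen.

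In processing, storage and activation, 11 of 17 tested genes were higher, 4 were lower and Furin and Itgb1 were not called. Furin, the proprotein convertase, had a log2 fold change of 0.06 (adjusted p = 0.15, edgeR). Fbn1, the fibrillin that anchors latent binders, was higher by 0.16 on the log2 scale, and 2442 of its exon bases are shared with Gm9913. Mmp2, a gelatinase that can release TGF-beta from its latent form, rose from 24.1 ± 0.508 to 598 ± 24.1 CPM (SD, n = 3), and Tgm2, a crosslinking enzyme of latent complexes, from 21.04 ± 0.616 to 76.7 ± 4.09 CPM. Plau, which encodes urokinase, fell from 76.0 ± 3.1 to 16.8 ± 1.16 CPM, and Thbs1, the TGF-beta activator thrombospondin 1, from 524 ± 16.3 to 350 ± 9.0 CPM. Bmp1, a protease that cleaves Ltbp1, had a log2 fold change of -0.19, and its adjusted p in edgeR of 0.00218 became 0.077 with upper quartile normalization. Nrros and Fbn2, with 0 counts in every Control library, were not tested.

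The integrins that can bind the propeptides of TGF-beta1 and TGF-beta3 were measured as their alpha v chain and 5 beta chains. Itgb8, the beta chain of a main TGF-beta activating integrin, rose from 11.8 ± 1.01 to 25.8 ± 3.34 CPM (SD, n = 3), while Itgb6, the beta chain of the epithelial activating integrin, fell from 2.58 ± 0.351 to 0.642 ± 0.139 CPM. Itgb5 rose with a log2 fold change of 1.54 and Itgb3 with one of 0.47. Itgav, the alpha chain that they share, overlapped between the groups, shares 634 exon bases with Gm13684, and was higher by 0.18 on the log2 scale (SE 0.0625, adjusted p = 0.0128, edgeR), and lost its call without Control replicate 1 (adjusted p = 0.0587), Control replicate 2 (0.0642) or Hdac4-knockdown replicate 1 (0.0766). Itgb1 was at 0.05 and was not called.

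Of the co-receptors and extracellular binders, 9 of 11 tested genes were higher and 1 was lower, and Nrp1 was not called. The small leucine-rich proteoglycans, which bind TGF-beta in the matrix, showed the largest values. Bgn, which encodes biglycan, rose from 59.5 ± 2.54 to 1659 ± 45.1 CPM (SD, n = 3), and Aspn, which encodes asporin, from 0.462 ± 0.0909 to 21.02 ± 1.26 CPM. Fmod, which encodes fibromodulin, had 1, 0 and 1 counts in the Control libraries and 1550, 1755 and 1561 counts in the Hdac4-knockdown libraries. Htra1, a secreted protease, fell from 271 ± 9.32 to 77 ± 1.36 CPM. The smallest increases that the naming rule gave were those of Cd109, a TGF-beta co-receptor that dampens signaling, at a log2 fold change of 0.91, and of Vasn, a TGF-beta trap, at 1.11.

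Of the Smads and intracellular regulators, 10 of 22 tested genes were higher, 9 were lower and Tgif2, Tgfbrap1 and Trim33 were not called, and the list's median was -0.01 on the log2 scale. Among the transducers, the log2 fold change was 0.24 for Smad2, 0.31 for Smad3 and 0.16 for Smad4. The adjusted p of Smad4, 0.00586 in edgeR, became 0.0755 without Control replicate 1. Of the inhibitory Smads, Smad7, which blocks Tgfbr1, rose from 36.9 ± 2.77 to 82.8 ± 1.57 CPM (SD, n = 3), and Smad6, which acts mainly on BMP receptors, from 4.81 ± 1.16 to 8.58 ± 0.434 CPM. Ldlrad4, which sequesters the receptor Smads, rose from 7.11 ± 0.735 to 26.7 ± 0.457 CPM, and 2798 of its exon bases are shared with Fam210a. Fkbp1a, whose product binds and restrains Tgfbr1, fell from 432 ± 12.4 to 243 ± 4.67 CPM, and Nedd4l and Ppm1a, a ubiquitin ligase and a phosphatase of the receptor Smads, had log2 fold changes of -0.51 and -0.40. The symbol Hgs belongs to a pair of overlapping identifiers with 2 counts or fewer in every library, and was not tested.

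Among known transcriptional targets, 21 of 30 tested genes were higher, 7 were lower and Col4a1 and Timp1 were not called, and the list's median was 0.96 on the log2 scale. Col1a1, the collagen I chain, rose from 338 ± 14.4 to 11015 ± 326 CPM (SD, n = 3), and Postn, which encodes the matrix protein periostin, from 11.9 ± 0.908 to 357 ± 10.2 CPM. Tgfbi, a matrix protein named for its induction by TGF-beta, rose from 9.95 ± 0.434 to 128 ± 4.52 CPM. Loxl2, a lysyl oxidase, fell from 2382, 2667 and 2295 counts to 7, 8 and 13 counts, Tnc, which encodes tenascin C, fell to 6.21% of the Control level, and Snai2, a transcription factor, to 30.8%. Targets often used as direct readouts lay on both sides. Ccn2, which encodes connective tissue growth factor, had a log2 fold change of 0.86 and shares 665 exon bases with Gm15270, whereas Skil and Pmepa1 had log2 fold changes of -0.20 and -0.21. With upper quartile normalization, Skil was at -0.11 with an adjusted p of 0.125 in edgeR and was not called. Library size alone also ended the call of Skil (adjusted p = 0.0539).

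**Figure D5:**
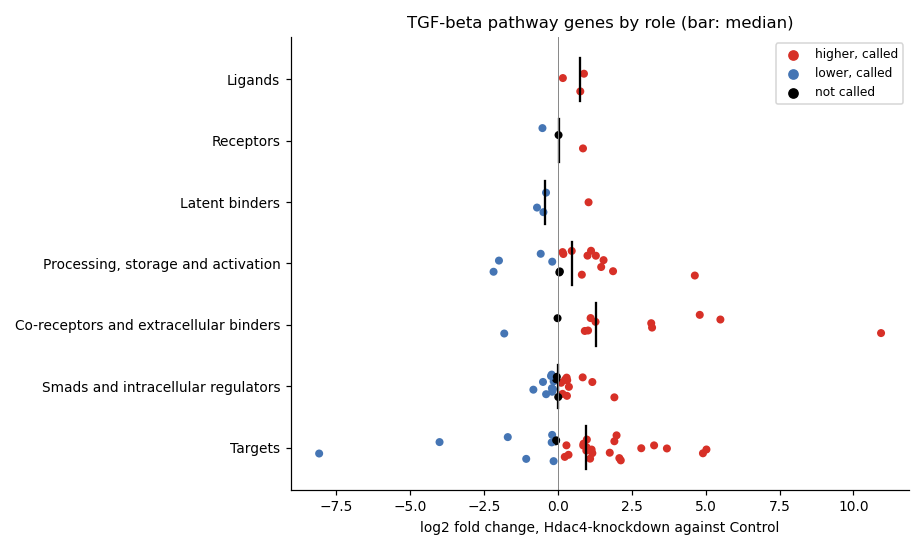
Log2 fold change between Hdac4-knockdown and Control libraries (horizontal axis) of the tested ligands, receptors, latent binders and other pathway genes, by role. Each point is a gene, coloured by its call, with random vertical offsets, and vertical bars give the medians, from -0.45 for the latent binders to 1.27 for the co-receptors and extracellular binders. Ligands, receptors and latent binders lie between -0.71 and 1.04, inside the spread of the other roles, and the point farthest to the right is Fmod, whose fitted value depends on the prior count because its Control libraries held 1 count or fewer.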

How the data were processed

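Per the labels, poly-A selected RNA was made into libraries with a kit that does not mark strand. The authors deposited raw counts of reads per Ensembl gene for each library, and the submitters' processing notes name STAR 2.7.3a, HTSeq 0.12.4 and mm10. The annotation release is not given in the sources used here. The closing lines of each table (reads outside genes, shared between genes or aligned to several places) were kept out of library sizes and tests, and reads shared between genes were 5.84% to 6.51% of all reads. Of 53801 identifiers, 53706 matched GENCODE M21 (GRCm38), which gave symbols, positions and exon lengths. Counts were fitted in edgeR 4.0.16 (R 4.3.3; TMM, filterByExpr, quasi-likelihood F test, Benjamini-Hochberg over 14531 genes), with 3 libraries a group, and SEs were derived from the F statistic. Pools and shares were compared by two-sided exact permutation tests (scipy 1.17.1). Libraries of the same group differed by more than sampling noise (chi-square per degree of freedom 3.38 to 9.15). In simulated data for this comparison, over 14224 tested genes, the fit recovered 89.9% of planted log2 changes of 1 and 78.6% of those of 0.5. There were 15 false calls. The planted genes tested were 99 and 98, changed in both directions, and all other genes were left unchanged. In the measured data 75.1% of genes tested were called, so the simulation does not measure recovery or false calls at that extent of change. Alternatives were other normalizations and filters, DESeq2 1.42.0, limma-voom (limma 3.58.1), a replicate block, fold change thresholds, other gene lengths and leaving out each library. The genes and lists were chosen with earlier results of these data known. Besides the 10 genes and Hdac4, the text names, in each list, the 3 largest and 3 smallest log2 fold changes among called genes with a mean of at least 100 counts and non-overlapping groups, and the genes it says were added. Of the listed markers, those of chondrocytes had 2 of 5 genes higher and those of adipocytes 2 of 5 lower. Tendon or fibroblast markers had 2 higher and 1 lower of 5. Blood markers had 1 of 4 higher and epithelial markers 0 of 4 in either direction. Over all genes tested, 38% were called as higher and 37.1% as lower. Markers of these lists with too few counts to be tested were Acan, Col9a1, Adipoq, Plin1, Fabp4, Tnmd, Thy1, Ptprc, Adgre1, Epcam, Krt18 and Cdh1. Some genes of the lists are counted but not reported here by name.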

Additional observations from a re-analysis of the deposited data

Results flagged for a closer look

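Reads outside genes, which no comparison above uses, were flagged because their share was above the level in the Control libraries. They made up 4.79% ± 0.241 (SD, n = 3) of all reads in the tables of the Hdac4-knockdown libraries and 3.28% ± 0.122 of those of the Control libraries, and the groups did not overlap. The part of this difference in the results for the TGF-beta genes was not tested.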

How the results depend on the processing

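All 14 alternatives gave 5 of the 10 TGF-beta genes as higher and 4 as lower, except upper quartile normalization, which added Tgfbr2 to those called as higher (log2 fold change 0.11, adjusted p = 0.0242, edgeR). Tgfbr2 turned to -0.0076 without a count filter and to -0.0051 without Control replicate 1, and the values without single libraries were -0.0051 to 0.0365. Tgfb1 was nearest to the threshold, with an adjusted p of 0.0491 without Control replicate 1 and 0.0492 without Control replicate 3 in edgeR. With a log2 fold change threshold of 0.5, 4 of the 10 genes were called as higher and 2 as lower. At that threshold 36 pathway genes were higher and 10 lower, and over all genes 3579 were higher and 2879 lower. With a threshold of 1, 1 of the 10 genes was higher and 0 were lower, 28 pathway genes were higher and 7 lower, and over all genes 2397 were higher and 1543 lower. Leaving out each library in turn gave 45 to 48 higher and 19 to 21 lower pathway genes, and 5370 to 5519 higher and 5165 to 5402 lower genes in all. Whether the replicate numbers pair the samples cannot be settled from how the libraries deviated. Correlations were -0.00523 to 0.0956 for same-numbered libraries and -0.082 to 0.0654 for the others. With the number as a block, the higher and lower counts were 5 and 4 for the 10 genes and 48 and 19 for the pathway genes. For all genes they were 5523 and 5441. In percentage points, the Tgfbr2 share turned from -0.835 to 2.00 with coding lengths. The Ltbp1 share moved from -13.3 to -14.1 with coding lengths and to -15.8 without lengths. Without single libraries the differences in share were -10.7 to -9.66 for Tgfb1, -1.38 to -0.421 for Tgfbr2 and -13.6 to -12.9 for Ltbp1. Coding lengths left 2 of the 10 genes at their place in the order of levels. With coding lengths, added after the data were seen, the groups separated in the ratio of latent binders to ligands (means 1.35 and 1.58), the ratio of Tgfbr3 to Tgfbr1 stayed below 1, and the sum of receptors was 0.976 times the Control level. Upper quartile normalization moved the median log2 fold change of all genes from 0.01 to 0.10, and library size alone moved it to 0.07. It was 0.27 with DESeq2 and 0.25 with no filter beyond 1 count, both over larger sets of genes. With 3 libraries a group, exact permutation tests cannot give a p below 0.1, so calls rest on the fit across genes.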
